A study of Homo sapiens with 12 samples.

Results

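The 11 probe sets annotated to 5 lipid synthesis genes, SREBF1, SCD, ACACA, ACAT2 and SQLE, were followed among 16376 probe sets on Affymetrix U133A 2.0 arrays. Every probe set that named one of these symbols, and no other, was kept: 1 for SREBF1, 4 for SCD, 2 for ACACA, 1 for ACAT2 and 3 for SQLE. The 12 arrays held RNA of the glioma cell lines SF539 and SNB19. In each line 2 arrays came from cells given PARK2 siRNA#1, 2 from cells given PARK2 siRNA#2 and 2 from cells given a scramble siRNA. All 6 groups, the scramble groups included, were transfected with the lipid reagent Lipofectamine RNAiMAX and harvested 48 h later. No untransfected culture is analysed here. SF539 was grown in MEM and SNB19 in DMEM, both with serum, so the line and its medium cannot be told apart. PARK2 codes for the E3 ubiquitin ligase parkin. Its level is not analysed here, so the depth of each knockdown is unknown.

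Cells make fatty acids and cholesterol from acetyl-CoA by 2 routes that share a transcriptional switch. When membrane sterol is low, the SREBP precursors are carried from the endoplasmic reticulum to the Golgi, cut, and enter the nucleus, where they bind the promoters of lipid synthesis genes. SREBF1 codes for SREBP-1, the form best known for fatty acid genes, and is itself induced by the liver X receptors and by SREBP. ACACA codes for acetyl-CoA carboxylase, which makes malonyl-CoA and commits carbon to fatty acid synthesis. SCD puts the first double bond into saturated fatty acids. ACAT2 is the cytosolic thiolase that starts the mevalonate route, and is not the sterol esterifying enzyme that has borne the same name. SQLE codes for squalene epoxidase, a rate-limiting oxygenase on the way to cholesterol. Glioblastoma cells are known to depend on this programme when growth factor signalling is strong.

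RefSeq promoter windows of assembly GRCh38.p14, from 250 bases before a transcript start to 50 bases after it, were examined for 3 of the 5 genes, SREBF1, SCD and ACACA. Windows of ACAT2 and SQLE are not analysed here. The windows of SREBF1 and SCD are shown because the responses of these genes differed most between the lines. The SREBF1 window lies on the minus strand at chr17:17836937-17837236, and the SCD window on the plus strand at chr10:100346983-100347282. Capitals mark every GC box (GGGCGG, bound by Sp1 family factors) and CCAAT box (CCAAT, bound by NF-Y), read on both strands.
SREBF1: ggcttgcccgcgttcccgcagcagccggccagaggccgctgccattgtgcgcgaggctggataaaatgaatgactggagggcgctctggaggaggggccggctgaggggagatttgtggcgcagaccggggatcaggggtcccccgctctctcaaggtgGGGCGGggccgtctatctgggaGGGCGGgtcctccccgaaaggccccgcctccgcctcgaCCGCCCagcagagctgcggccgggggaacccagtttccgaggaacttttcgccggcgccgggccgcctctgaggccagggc
SCD: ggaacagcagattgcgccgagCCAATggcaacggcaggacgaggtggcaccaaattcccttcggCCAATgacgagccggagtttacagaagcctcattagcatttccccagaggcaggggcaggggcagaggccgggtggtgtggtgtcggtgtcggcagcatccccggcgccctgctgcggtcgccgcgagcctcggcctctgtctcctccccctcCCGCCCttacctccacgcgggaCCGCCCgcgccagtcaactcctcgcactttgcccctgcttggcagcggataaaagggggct
The SREBF1 window held 3 GC boxes and no CCAAT box, and the SCD window held 2 of each. The 3 ACACA windows, at chr17:37299718-37300017, chr17:37359047-37359346 and chr17:37406787-37407086 on the minus strand, held 2, 1 and 0 CCAAT boxes and 0, 7 and 6 GC boxes, some of them overlapping. Of all 35116 RefSeq windows, 45.0% held a GC box and 34.6% a CCAAT box. The sterol regulatory element TCACNCCAC, present in 1.13% of windows, and the E-box CACGTG, in 7.26%, had no match in any of these 5 windows. No match says only that these letters are not in this window.

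The deposited values were on the log2 scale, with array medians of 5.94 to 6.14 and lower quartiles of 3.93 to 4.02. Replicate arrays correlated at r = 0.991 to 0.998 over all probe sets. The SF539 siRNA#2 pair was the most spread, with a median SD of 0.13. In it replicate 2 was above replicate 1 for 9 of the 11 lipid probe sets, by a median of 0.39, while the median over all probe sets was -0.01. Of 7 astroglial and glioma markers measured, vimentin (VIM) and CD44 were high in both lines, whereas GFAP, S100B, SOX2, OLIG2 and FABP7 averaged between 3.18 and 4.81 in every SF539 group. In SNB19, GFAP, S100B and FABP7 rose with the PARK2 siRNAs, by 3.58, 1.00 and 1.33. In SF539 no glial marker passed for the mean of both siRNAs, and 1 of the 7 was lower with siRNA#2. The summed linear signal of the 7 was 14740 to 18140 in the SF539 siRNA groups against 18270 to 19030 with scramble. It was 23680 to 26570 in the SNB19 siRNA groups against 18740 to 19680 with scramble. Of 3 neuronal markers SNAP25 rose by 0.31 and SYT1 fell by 0.96 in SNB19. In SF539 TUBB3 fell by 0.64 with siRNA#2 (limma adjusted p = 0.031), and none of the 3 passed for the mean of both siRNAs. The neuronal sum was 1800 to 1865 with siRNA#1 and 1106 to 1647 with siRNA#2 in SF539 against 1996 to 2173 with scramble, and 2179 to 2446 in the SNB19 siRNA groups against 2257 to 2606 with scramble. Of 4 epithelial markers KRT8 fell by 0.37 in SF539 and KRT19 rose by 1.26 in SNB19; their summed linear signal was 70.9 to 88.0 in the SF539 siRNA groups against 92.4 to 93.6 with scramble, and 91.4 to 107 in the SNB19 siRNA groups against 67.1 to 73.6 with scramble. Of 4 endothelial markers VWF rose by 0.52 in SNB19, and their sum was 91.8 to 126 in the SF539 siRNA groups against 95.9 to 108 with scramble, and 99.5 to 116 in the SNB19 siRNA groups against 86.5 to 87.7 with scramble. None of 4 leukocyte markers passed in either line, and their sum was 84.2 to 94.1 in the SF539 siRNA groups against 88.2 to 97.9 with scramble, and 89.0 to 99.99 in the SNB19 siRNA groups against 95.4 to 96.6 with scramble. Whether these markers have a part in the lipid gene results was not tested.

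Within each line the mean of both PARK2 siRNAs was compared with scramble by limma, fitted to 6 group means on all 12 arrays, with Benjamini-Hochberg adjustment over all probe sets and a threshold of 0.05. Labels do not say whether replicates were separate cultures, so p-values measure the spread between these arrays only. RNA came from whole cultures, in which fewer cells expressing a gene and less RNA per cell cannot be told apart. In SF539, 9 of the 11 probe sets were higher with the PARK2 siRNAs and none lower, where 9.09% of the table passed. In SNB19, 6 of 11 were higher and 2 lower, where 28.6% of the table passed. The median difference of the 11 was 0.83 in SF539 and 0.52 in SNB19, beside -0.02 and -0.003 over the whole table. The difference of these responses, SF539 minus SNB19, passed as positive for 6 of the 11 and negative for 1, where 16.2% of the table passed.

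**Figure D1:**
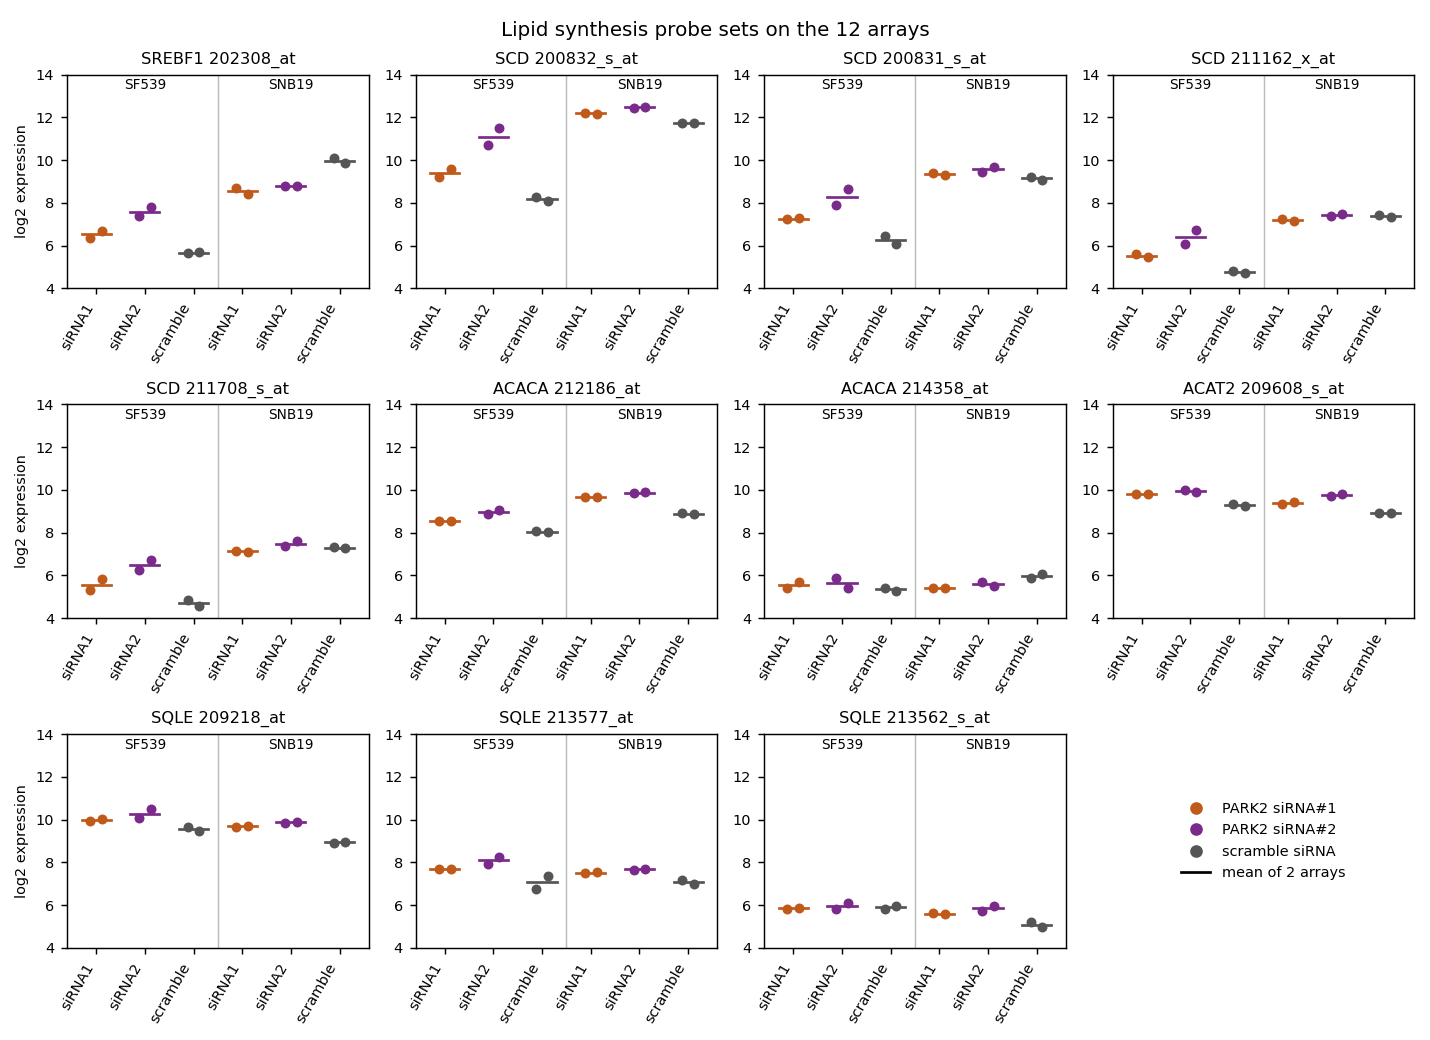
Log2 expression of the 11 probe sets on each of the 12 arrays, with the SF539 groups left of the SNB19 groups and the 2 siRNA groups left of scramble. Points are single arrays and bars are means of 2. SREBF1 lies higher with both siRNAs in SF539 and lower with both in SNB19, while the brighter ACACA probe set, ACAT2 and SQLE 209218_at lie higher with both siRNAs in both lines.

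SREBF1, the transcription factor gene, moved in opposite directions in the 2 lines. In SF539 its probe set 202308_at read 6.37 and 6.67 with siRNA#1 and 7.37 and 7.81 with siRNA#2, against 5.65 and 5.70 with scramble. In SNB19 it read 8.69 and 8.43 with siRNA#1 and 8.80 and 8.78 with siRNA#2, against 10.08 and 9.86 with scramble. The siRNA arrays all lay above scramble in SF539 and all below it in SNB19, with no overlap. With the siRNAs SREBF1 rose by 1.38 ± 0.14 (SE) in SF539 (limma adjusted p = 0.00054), and fell by 1.30 ± 0.14 in SNB19, which is 2.46-fold lower (limma adjusted p = 8.4e-05). The SF539 scramble values lie below every array's median, near those of ACACA 214358_at and SQLE 213562_s_at, so no fold is given for SF539. The responses differed by 2.68, with a 95% interval of 2.24 to 3.12 (limma adjusted p = 1.3e-05). Even so the lines did not meet: the group means ran from 9.97 in SNB19 scramble through 8.79 and 8.56 in SNB19 siRNA#2 and siRNA#1 to 7.59 and 6.52 in SF539 siRNA#2 and siRNA#1 and 5.67 in SF539 scramble. In that order only SNB19 siRNA#2 and siRNA#1 did not differ by the test (limma adjusted p = 0.57).

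SCD, the stearoyl-CoA desaturase gene, had the largest rise of the 5 genes in SF539. Probe set 200832_s_at read 9.19 and 9.58 with siRNA#1 and 10.71 and 11.48 with siRNA#2, against 8.29 and 8.07 with scramble. In SNB19 it read 12.20 and 12.15 with siRNA#1 and 12.45 and 12.49 with siRNA#2, against 11.75 and 11.74 with scramble. No siRNA array overlapped scramble in either line, and the SF539 siRNA#2 pair of arrays lay further apart than any other pair. In SF539 the difference was 2.06 ± 0.19, or 4.16-fold (limma adjusted p = 0.00036), and in SNB19 0.58 ± 0.19, or 1.49-fold (limma adjusted p = 0.042). The SNB19 call ended with quantile normalization (limma adjusted p = 0.071) and when any of the 6 SNB19 arrays was left out (limma adjusted p = 0.082 to 0.17). With the SCD probe sets averaged the SNB19 difference was 0.21 (limma adjusted p = 0.36).

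The other 3 SCD probe sets also rose in SF539 and did not pass in SNB19. Probe set 200831_s_at read 7.24 and 7.28 with siRNA#1 and 7.88 and 8.65 with siRNA#2 in SF539, against 6.45 and 6.10 with scramble. The dimmer sets 211162_x_at and 211708_s_at read 5.30 to 5.81 with siRNA#1 and 6.09 to 6.71 with siRNA#2, against 4.57 to 4.86 with scramble. In all 3 the SF539 siRNA#2 arrays were highest and the scramble arrays lowest. They rose in SF539 by 1.49, 1.22 and 1.30 (limma adjusted p = 0.0015, 0.0010 and 0.0017). In SNB19 their differences were 0.32, -0.06 and 0.005, none of which passed (limma adjusted p = 0.25, 0.81 and 0.99). For all 4 SCD probe sets the response was larger in SF539 than in SNB19, by 1.17 to 1.48. SCD has a pseudogene, SCDP1, and the suffix of 211162_x_at marks a set whose probes may bind other transcripts.

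ACACA, acetyl-CoA carboxylase, rose in both lines by its brighter probe set. In SF539 212186_at read 8.52 and 8.54 with siRNA#1 and 8.88 and 9.07 with siRNA#2, against 8.06 and 8.02 with scramble. In SNB19 it read 9.68 and 9.64 with siRNA#1 and 9.85 and 9.88 with siRNA#2, against 8.90 and 8.85 with scramble. All siRNA arrays were above scramble in both lines. The rise was 0.71 ± 0.08 in SF539, or 1.64-fold (limma adjusted p = 0.00078), and 0.89 ± 0.08 in SNB19, or 1.85-fold (limma adjusted p = 2.1e-05). The responses differed by -0.17, SF539 minus SNB19, with a 95% interval of -0.42 to 0.07 (limma adjusted p = 0.34).

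The second ACACA probe set, 214358_at, did not follow the first. In SF539 it read 5.39 and 5.70 with siRNA#1 and 5.89 and 5.40 with siRNA#2, against 5.42 and 5.28 with scramble. In SNB19 it read 5.41 and 5.41 with siRNA#1 and 5.67 and 5.52 with siRNA#2, against 5.87 and 6.08 with scramble. It did not pass in SF539, where siRNA and scramble arrays overlapped (0.25 ± 0.14, limma adjusted p = 0.34), and was lower in SNB19 by -0.47 ± 0.14 (limma adjusted p = 0.032), a call that ended in 5 of the 12 fits that left out 1 array. It also ended with quantile normalization (limma adjusted p = 0.0999) and median centring (limma adjusted p = 0.095). This set carries no transcript accession in the annotation used. When both ACACA probe sets were averaged, the SNB19 difference was 0.21 (limma adjusted p = 0.069).

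ACAT2, the cytosolic thiolase gene, rose in both lines. In SF539 its probe set 209608_s_at read 9.80 and 9.78 with siRNA#1 and 9.97 and 9.91 with siRNA#2, against 9.35 and 9.26 with scramble. In SNB19 it read 9.33 and 9.44 with siRNA#1 and 9.69 and 9.78 with siRNA#2, against 8.92 and 8.91 with scramble. In each line the order was siRNA#2, siRNA#1, scramble, with no overlap of arrays. The differences were 0.56 ± 0.07 in SF539, or 1.48-fold (limma adjusted p = 0.0019), and 0.65 ± 0.07 in SNB19, or 1.57-fold (limma adjusted p = 0.00013). They differed by -0.09, with a 95% interval of -0.32 to 0.15 (limma adjusted p = 0.65). Across lines, SF539 scramble, at a mean of 9.30, and SNB19 siRNA#1, at 9.39, overlapped.

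SQLE, squalene epoxidase, also rose in both lines. In SF539 209218_at read 9.94 and 10.03 with siRNA#1 and 10.08 and 10.47 with siRNA#2, against 9.67 and 9.49 with scramble. In SNB19 it read 9.66 and 9.70 with siRNA#1 and 9.84 and 9.91 with siRNA#2, against 8.92 and 8.94 with scramble. The rise was 0.55 ± 0.11 in SF539, or 1.47-fold (limma adjusted p = 0.014), and 0.85 ± 0.11 in SNB19, or 1.80-fold (limma adjusted p = 0.00029). The SF539 call ended when scramble replicate 2 was left out (0.46, limma adjusted p = 0.090) and when the SF539 arrays were fitted alone (limma adjusted p = 0.12). The responses differed by -0.29, with a 95% interval of -0.64 to 0.05 (limma adjusted p = 0.24).

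The other SQLE probe sets both rose in SNB19 and split in SF539. In SNB19 213577_at rose by 0.52 and 213562_s_at by 0.64 (limma adjusted p = 0.034 and 0.0015). In SF539 213577_at read 7.67 and 7.69 with siRNA#1 and 7.94 and 8.27 with siRNA#2, against 6.74 and 7.38 with scramble. Its rise of 0.83 passed (limma adjusted p = 0.012), but was 0.51 with scramble replicate 1 left out (limma adjusted p = 0.071), and it did not pass with the SF539 arrays fitted alone (limma adjusted p = 0.10). In SF539 213562_s_at read 5.81 and 5.87 with siRNA#1 and 5.83 and 6.11 with siRNA#2, against 5.83 and 5.96 with scramble, and these ranges overlapped. Its response was smaller in SF539 than in SNB19 by -0.63, with a 95% interval of -0.97 to -0.28 (limma adjusted p = 0.021). The call of 213577_at in SNB19 ended in 8 of the 12 fits that left out 1 array.

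**Figure D2:**
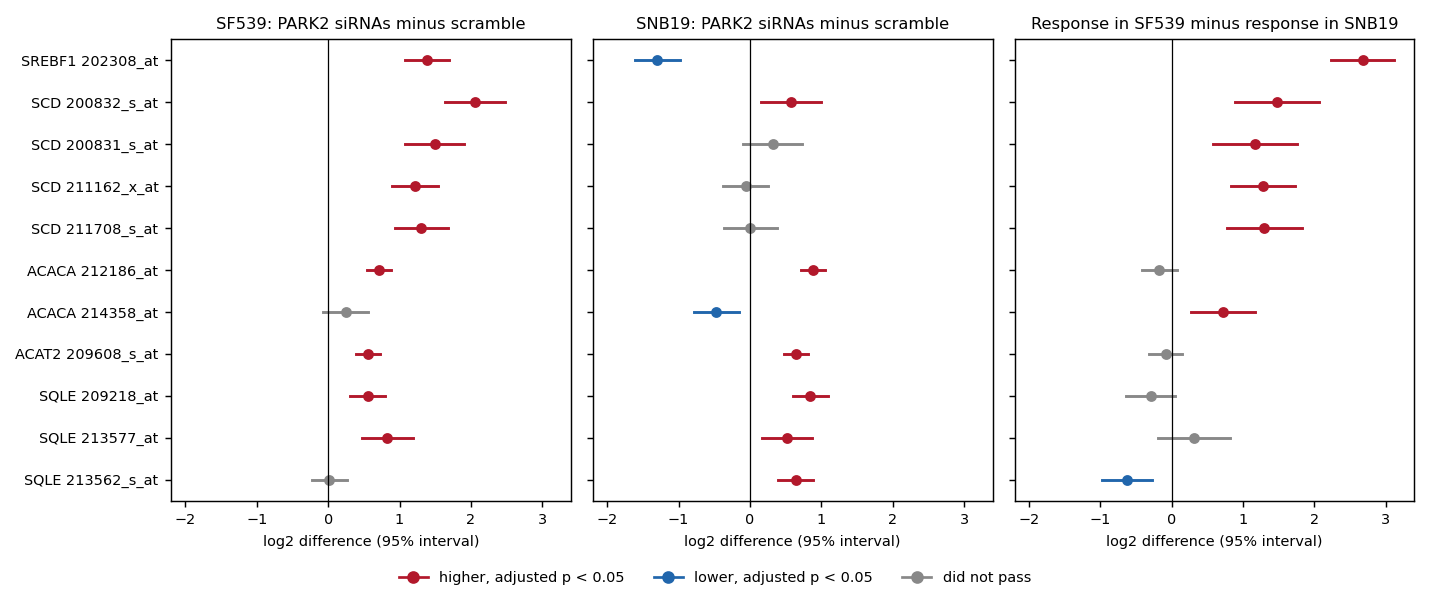
Differences in log2 expression of the 11 probe sets, PARK2 siRNAs minus scramble, in SF539 and in SNB19, and the SF539 response minus the SNB19 response, each with its 95% interval. SREBF1 lies at 1.38 in SF539 and -1.30 in SNB19, and the 4 SCD probe sets lie right of zero in the panel of the difference between lines, while intervals of ACAT2, ACACA 212186_at and SQLE 209218_at there include zero.

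Each siRNA was then set against the scramble arrays that both share. In SF539, with siRNA#1 5 of the 11 probe sets were higher, where 1.76% of the table passed, and with siRNA#2 9 of 11, where 13.0% passed; none was lower with either. SREBF1 rose by 0.85 with siRNA#1 and 1.92 with siRNA#2, SCD 200832_s_at by 1.20 and 2.91, and ACACA 212186_at by 0.49 and 0.94. Between siRNA#2 and siRNA#1 5 of 11 were higher with siRNA#2, where 1.68% of the table passed: SREBF1 by 1.07, SCD 200832_s_at, 211162_x_at and 211708_s_at by 1.71, 0.87 and 0.92, and ACACA 212186_at by 0.45. ACAT2, at 0.15 (95% interval -0.05 to 0.34), and SQLE 209218_at, at 0.29 (0.01 to 0.57), did not pass (limma adjusted p = 0.37 and 0.23). The 5 calls with siRNA#1 and the 5 between the siRNAs all ended when the SF539 arrays were fitted alone. Leaving out 1 array gave 0 to 8 calls with siRNA#1 and 0 to 7 between the siRNAs, and 9 with siRNA#2. With the SF539 arrays fitted alone 7 of the 9 siRNA#2 calls held, those of SQLE 209218_at and 213577_at ending (limma adjusted p = 0.073 and 0.065).

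In SNB19 4 of 11 were higher and 2 lower with siRNA#1, where 22.9% of the table passed, and 6 were higher and 1 lower with siRNA#2, where 25.8% passed. SREBF1 fell by 1.41 with siRNA#1 and by 1.18 with siRNA#2, and ACACA 212186_at rose by 0.78 and by 0.99. ACAT2 rose by 0.47 and 0.82, and SQLE 209218_at by 0.75 and 0.94. SCD 200832_s_at was at 0.43 with siRNA#1 and 0.72 with siRNA#2, and passed with siRNA#2 alone (limma adjusted p = 0.20 and 0.032). So did SQLE 213577_at, at 0.44 and 0.60 (limma adjusted p = 0.12 and 0.037). ACACA 214358_at, at -0.56 and -0.38, passed with siRNA#1 alone (limma adjusted p = 0.033 and 0.13). None of the 11 passed between siRNA#2 and siRNA#1 in SNB19 by limma, where 4.26% of the table passed. Their differences were all positive, with a median of 0.23 beside 0.006 over the whole table. ACAT2 came nearest to passing, at 0.35 (limma adjusted p = 0.051).

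**Figure D3:**
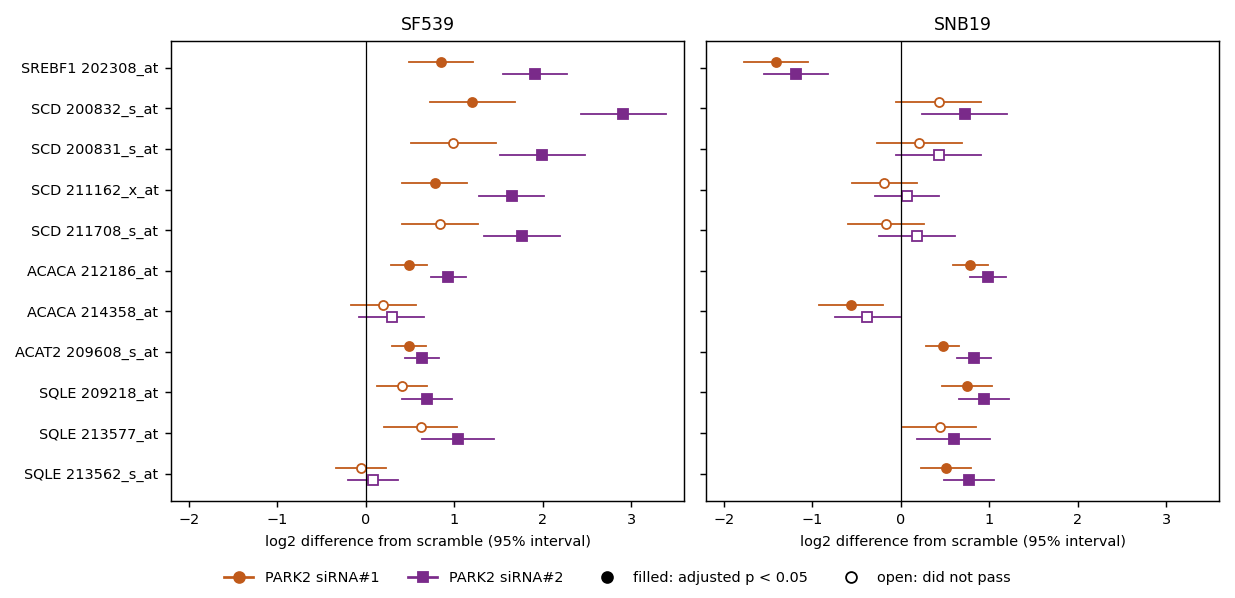
Differences in log2 expression from scramble for PARK2 siRNA#1 and PARK2 siRNA#2 in each line, with 95% intervals; filled symbols passed at an adjusted p under 0.05. Both siRNAs share the scramble arrays of their line. In both lines siRNA#2 lies right of siRNA#1 for all 11 probe sets, at 2.91 against 1.20 for SCD 200832_s_at in SF539. In SNB19 none of the differences between the siRNAs passed.

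Without a PARK2 siRNA the lines already differed for 10 of the 11 probe sets, 3 higher and 7 lower in SF539 than in SNB19, where 44.4% of the table passed. SREBF1 averaged 5.67 in SF539 scramble and 9.97 in SNB19 scramble, a difference of -4.30 ± 0.16 (limma adjusted p = 1.6e-08). The 4 SCD probe sets were lower in SF539 by -2.59 to -3.57, and the 2 ACACA probe sets by -0.84 and -0.63. ACAT2 was higher in SF539 by 0.39 and SQLE by 0.65 and 0.82 in 209218_at and 213562_s_at, while 213577_at did not pass. With siRNA#2 SCD 200832_s_at reached 11.09 in SF539, still below the 11.75 of SNB19 scramble (limma adjusted p = 0.031), whereas ACACA 212186_at reached 8.98 and overlapped SNB19 scramble, at 8.88 (limma adjusted p = 0.43).

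The genes whose values followed each lipid gene most closely were taken from 10820 probe sets, by Pearson r over the 12 arrays after the mean of each line was subtracted. These arrays fall into 6 groups and share scramble controls, so r is a description. Nearest to SREBF1 were LRRC17 (r = 0.99), CSF1 (r = 0.98), which codes for a macrophage growth factor, and ANK3 (r = 0.97). Their differences from scramble were 1.49, 1.01 and 1.42 in SF539 and -1.64, -0.87 and -1.63 in SNB19. Nearest to SCD were CDH11, TRIM16 and DHCR7, the last enzyme of cholesterol synthesis, at r = 0.99 to 0.98. SQLE and ACACA were each among the 3 nearest of the other (r = 0.98), with GJA1, a gap junction gene, also near ACACA (r = 0.98) and GALNT10 near SQLE (r = 0.98). CBR4, NRP2 and BTG3 were nearest to ACAT2 (r = 0.99, 0.98 and 0.98).

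The wider pathway, the 5 genes included, was read from 5 lists with 1 probe set per gene. Of 8545 genes in all, 9.34% passed in SF539, 31.3% in SNB19 and 17.8% for the difference between the lines. Of 20 cholesterol synthesis genes 15 were measured. In SF539 7 of them rose and none fell. In SNB19 4 rose and none fell, a share not above that of all genes there. ACAT2 and SQLE were among both. The median differences were 0.27 in SF539 and 0.26 in SNB19, against -0.02 and -0.01 over all genes. Without ACAT2 and SQLE, 5 of 13 rose in SF539 and 2 of 13 in SNB19, with medians of 0.20 and 0.14. The others in SF539 were DHCR7 by 1.38, the cyclase gene LSS by 0.71, MSMO1 by 0.70, the isomerase gene IDI1 by 0.55 and HMGCS1, which feeds the mevalonate route, by 0.55. In SNB19 they were FDPS, farnesyl diphosphate synthase, by 0.61 and NSDHL by 0.26. Under median centring the difference between the lines did not pass for LSS, IDI1 and SC5D (limma adjusted p = 0.079, 0.073 and 0.17). As deposited it passed for 4 genes, DHCR7, LSS, IDI1 and SC5D, all more positive in SF539. These calls ended in 7, 7, 1 and 10 of the 12 fits that left out 1 array. With probe sets averaged those of DHCR7, LSS and SC5D also ended, at 0.75, 0.23 and 0.26 (limma adjusted p = 0.084, 0.34 and 0.12). The SF539 count was 4 with that line fitted alone, and the SNB19 count 8; the NSDHL call ended whenever an SNB19 array was left out, and that of LSS in SF539 when its probe sets were averaged (0.26, limma adjusted p = 0.17).

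Of 24 fatty acid synthesis and elongation genes 15 were measured. In SF539 5 rose and none fell: SCD, ACACA, the desaturase gene FADS2 by 1.17, malic enzyme ME1, which supplies NADPH, by 0.71, and fatty acid synthase FASN by 0.66. In SNB19 4 rose and 1 fell, a share near that of all genes there. ACSL1 and ACSL4, which activate fatty acids to acyl-CoA, were higher by 0.61 and 0.50, and the elongase gene ELOVL2 lower by -0.63. Without SCD and ACACA, 3 of 13 rose in SF539, and 2 rose and 1 fell in SNB19. The difference between the lines, SF539 minus SNB19, passed as positive for 2 of the 15, SCD and FADS2, and as negative for none. This share was not above the 17.8% of all genes, and the median difference of the 15 was -0.08. The FADS2 call ended in 8 of the 12 fits that left out 1 array. ACLY, which makes cytosolic acetyl-CoA, was at -0.03 in SF539 and 0.09 in SNB19 and did not pass. The SF539 count was 2 with that line fitted alone, and FASN, ELOVL2 and ACSL4 each lost theirs in most fits that left out an array of their own line. Without scramble replicate 1 ME1 was at 0.47 in SF539 (limma adjusted p = 0.16).

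Of 13 measured genes that govern SREBP, SREBF1 included, 3 rose and none fell in SF539, and 1 rose and 3 fell in SNB19, a share near that of all genes there. SREBF1 and NR1H3 were called in opposite directions. INSIG1, which holds the SREBP complex in the endoplasmic reticulum, rose by 0.88 in SF539 and was at 0.01 in SNB19. INSIG2, its relative, was at 0.35 in SF539, which did not pass, and in SNB19 fell to 9.21 with siRNA#1 and 8.71 with siRNA#2, against 9.99 with scramble, a difference of -1.03 ± 0.13 (limma adjusted p = 0.00028). NR1H3, the liver X receptor alpha gene, was higher by 0.58 in SF539 and lower by -0.43 in SNB19. Its SF539 call ended with that line fitted alone (limma adjusted p = 0.11), with array weights (limma adjusted p = 0.057) and without scramble replicate 2 (limma adjusted p = 0.086). Its SNB19 call ended with quantile normalization (limma adjusted p = 0.072), median centring (limma adjusted p = 0.078) and in 4 fits that left out 1 array. MARCHF6, an E3 ligase that marks squalene epoxidase for degradation, rose by 0.57 in SNB19, and by 0.20 with its probe sets averaged (limma adjusted p = 0.057). SREBF2 and SCAP, the gene of the SREBP escort protein, passed in neither line, at 0.17 and 0.30 in SF539 and 0.15 and 0.09 in SNB19. The difference between the lines, SF539 minus SNB19, passed for 4 of the 13, where 17.8% of all genes passed, and was positive for all of these. The SF539 count was 1 with that line fitted alone and 6 without siRNA#2 replicate 1.

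Uptake and storage genes moved both ways, where 9.34% of all genes passed in SF539 and 31.3% in SNB19. Of 9 measured genes of lipoprotein uptake and sterol transport, 1 rose and 1 fell in SF539, the HDL receptor gene SCARB1 by 0.59 and the lysosomal cholesterol exporter NPC1 by -0.43. In SNB19 2 rose, VLDLR by 0.87 and LRP8 by 0.46, and 3 fell, among them the lysosomal acid lipase gene LIPA by -0.82 and SCARB1 by -0.30. The LRP8 rise came from siRNA#2 alone. Of 14 measured genes of LXR, lipid efflux and storage, 1 rose and 1 fell in each line. That share was near that of all genes in SF539 and below it in SNB19. In SF539 PPARG rose by 0.97 and the lipid droplet coat gene PLIN2 fell by 0.92, and by 0.52 with its probe sets averaged. In SNB19 DGAT1, the last enzyme of triglyceride synthesis, rose by 0.55 and LPIN1 fell by 0.74. The LIPA and LPIN1 calls held in every fit tried, while SCARB1 in SNB19 lost its call under median centring (limma adjusted p = 0.19). With SF539 fitted alone none of these SF539 calls held (limma adjusted p = 0.053 for SCARB1, 0.11 for NPC1, 0.10 for PPARG and 0.063 for PLIN2), and SCARB1 in SF539 was at 0.19 with its probe sets averaged (limma adjusted p = 0.21).

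**Figure D4:**
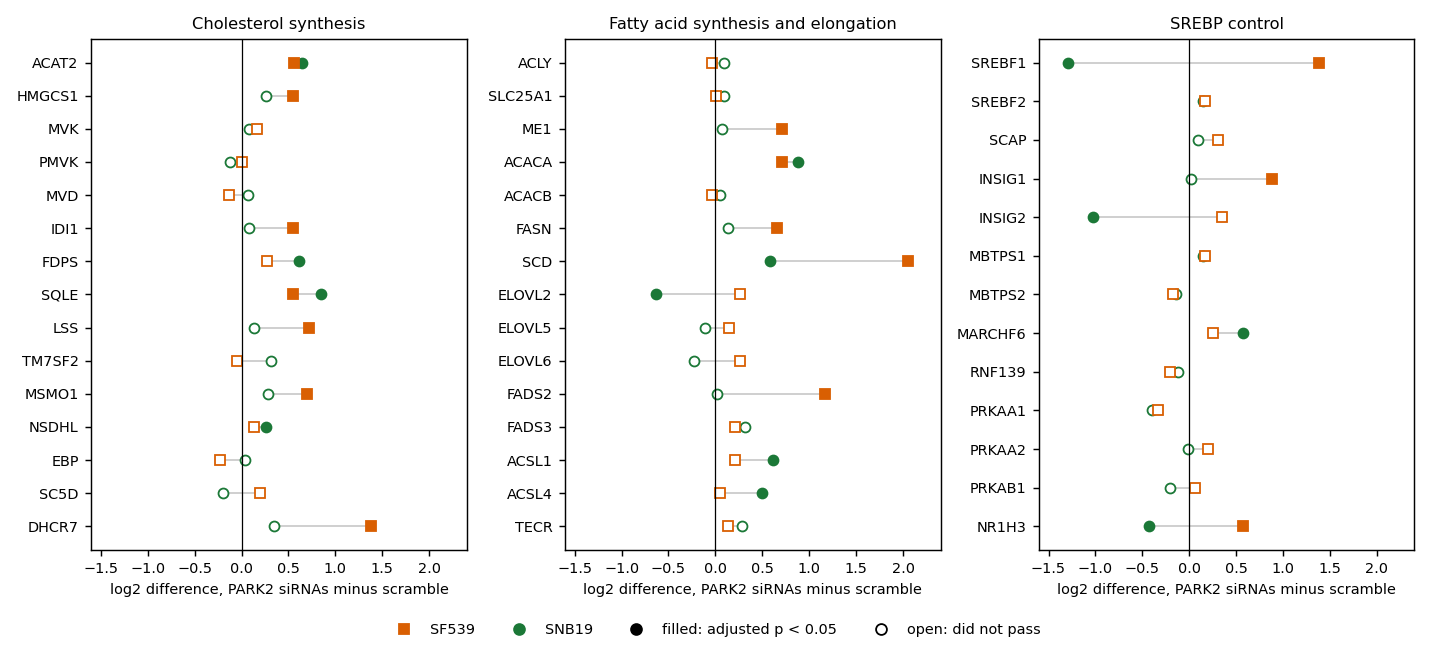
Differences in log2 expression, PARK2 siRNAs minus scramble, for the measured genes of 3 pathway lists in SF539 (squares) and SNB19 (circles), 1 probe set per gene; filled symbols passed at an adjusted p under 0.05. SREBF1 and NR1H3 have filled symbols on opposite sides of zero, at 1.38 and 0.58 in SF539 and -1.30 and -0.43 in SNB19; both NR1H3 calls ended under some alternatives, that in SF539 with the line fitted alone.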

How the data were processed

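RNA of 2 glioma lines given PARK2 or scramble siRNA was hybridised to 12 Affymetrix arrays. The deposited values are log2 intensities, for which the submitters' processing notes name Partek alone. How background, normalization and probe summary were handled is not given in the sources used here, and no detection calls were used. The number of arrays, 2 per group, limits the precision. Of 16376 probe sets, 14038 had 1 gene in the annotation used, 792 several and 1546 none; the symbols of 14028 probe sets were matched to RefSeq (GRCh38.p14) through Entrez identifiers.

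Values were used as deposited. limma 3.58.1 in R 4.3.3 fitted 6 group means on all 12 arrays (6 residual and 3.88 prior degrees of freedom), and 10 contrasts were tested two-sided, with Benjamini-Hochberg adjustment over all probe sets at 0.05. The code of the fit was checked on simulated data with independent noise, which does not bear on the calls reported here. For pathway lists the brightest probe set stood for a gene; up to 4 called genes per list and line with the smallest p are named, and MSMO1, HMGCS1, FASN, ACSL4, SC5D, ACLY, SREBF2 and SCAP were named after their values were seen. The probe sets, genes and lists were chosen with earlier results of these data known. Replicate numbers were not used to pair the arrays in the main fit. Of 15 pairs of groups none had same-numbered deviations correlating over 0.1. The lowest correlation was -0.20, for SF539 scramble with SF539 siRNA#1. Alternatives were quantile normalization, median centring, leaving out dim probe sets, 1 or averaged probe sets per gene, a trended prior, array weights, a replicate block, each line alone, and each array left out. One gene near SQLE and ACACA is not reported here. Figures were drawn with matplotlib 3.10.9.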

Additional observations from a re-analysis of the deposited data

Results flagged for a closer look

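In 7 of the 11 probe sets the response to the PARK2 siRNAs differed between the lines by the interaction term of the limma fit. Each was tested over all probe sets, of which 16.2% passed. All 4 SCD probe sets are among the 7, so these are not 7 separate genes. The difference, SF539 minus SNB19, was 2.68 for SREBF1, where the group means moved in opposite directions. For SCD it was 1.48, 1.17, 1.27 and 1.30 in 200832_s_at, 200831_s_at, 211162_x_at and 211708_s_at. Of these the value of 200831_s_at lost its call in 2 of the fits that left out 1 array. For ACACA 214358_at it was 0.72 (limma adjusted p = 0.037), and it lost its call in 9 of the 12 such fits. For SQLE 213562_s_at it was -0.63, and it lost its call in 2 of them. The other probe sets of ACACA and SQLE did not pass, so for these genes the difference rests on 1 dimmer probe set each. No group holds enough arrays for a test of single outlying arrays.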

How the results depend on the processing

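There were 2 arrays per group, no detection calls and no stated normalization, and no background level was estimated. Dim probe sets (SREBF1 with scramble in SF539, SCD 211162_x_at and 211708_s_at in SF539, ACACA 214358_at, SQLE 213562_s_at) may therefore be bounded by background. The calls of SREBF1, ACACA 212186_at and ACAT2 in both lines, and of all 4 SCD probe sets in SF539, held in every fit that left out 1 array. Median centring gave a share of higher calls in SF539 of 42.5%, against 55.4% as deposited; in SNB19 it moved the median of all probe sets to 0.13 and that share was 70.4% against 49.5%, for the difference between lines 24.9% against 52.9%, and between scramble groups 68.1% against 51.2%.

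Lipid probe sets called. Leaving out each array in turn gave 8 to 9 of 11 in SF539, 5 to 8 in SNB19, 5 to 8 for the difference between lines, 0 to 8 and 9 to 9 for siRNA#1 and siRNA#2 in SF539, 4 to 7 and 5 to 9 for siRNA#1 and siRNA#2 in SNB19, 0 to 7 and 0 to 1 for siRNA#2 against siRNA#1 in SF539 and SNB19, and 9 to 10 between the scramble groups. The SNB19 count of 8 was 5 without either scramble replicate, either siRNA#1 replicate or siRNA#2 replicate 2. For siRNA#2 against siRNA#1, SF539 gave 5 as reported, 3 with the replicate block, 3 with median centring, 1 with array weights and 0 with SF539 fitted alone, and SNB19 gave 0 as reported, 1 with dim probe sets left out, a trended prior or array weights, and 2 fitted alone. siRNA#1 in SF539 gave 0 fitted alone. The replicate block ended the ACACA 214358_at difference between lines (limma adjusted p = 0.051) and SCD 211162_x_at with siRNA#1 in SF539 (limma adjusted p = 0.068).

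Percent of the table called. The ranges with 1 array left out were 4.15 to 18.7 in SF539, 17.3 to 35.4 in SNB19, 9.29 to 25.8 for their difference, 0.0855 to 6.31 and 7.34 to 24.6 for siRNA#1 and siRNA#2 in SF539, 14.2 to 30.1 and 16.0 to 32.6 for siRNA#1 and siRNA#2 in SNB19, 0.0244 to 20.7 and 1.10 to 8.94 for siRNA#2 against siRNA#1 in SF539 and SNB19, and 35.5 to 49.0 between scramble groups. Leaving out the dimmest 40% of probe sets, which shrinks the table, gave 17.5, 45.9, 28.4, 5.11, 24.8, 38.5, 42.0, 4.16 and 8.46 in the same order without the scramble comparison. Array weights gave 5.70 in SF539, 3.57 and 4.13 for its siRNA#1 and siRNA#2, and 0.366 and 12.3 between the siRNAs in SF539 and SNB19. Single lines gave 1.82 in SF539, 0.0183 and 3.21 for its siRNA#1 and siRNA#2, and 0.0183 and 9.39 between the siRNAs in SF539 and SNB19. For siRNA#1 and between siRNAs in SF539, 1 probe set per gene gave 2.73 and 2.72, and a trended prior 2.95 and 2.67.

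Signs that turned, all of values that did not pass: in SNB19 SCD 211162_x_at with median centring (0.069) and SCD 211708_s_at without scramble replicate 2, siRNA#1 replicate 1 or siRNA#2 replicate 2 (-0.02, -0.01, -0.060; range 0.070 down to -0.060); in SF539 SQLE 213562_s_at with quantile normalization (-0.011), median centring (-0.030) and without scramble replicate 1, siRNA#1 replicate 2 or siRNA#2 replicate 2 (-0.05, -0.003, -0.058; range -0.058 to 0.083), and its range with 1 array left out for siRNA#1 (-0.12 to 0.0074), siRNA#2 (-0.062 to 0.22) and between siRNAs (lowest -0.0078); ACACA 214358_at between siRNAs in SF539 (-0.06 and -0.15; highest 0.34); the difference between lines of ACACA with averaged probe sets (0.27) and of SQLE 213577_at without SF539 scramble replicate 1 (-0.0091; highest 0.63); and SQLE 213577_at between scramble groups with quantile normalization (0.11), median centring (0.15) or without a scramble replicate 1 (0.07, 0.31; lowest -0.33). The cause was not tested.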

Other observations

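The lipoprotein lipase gene LPL, picked out after its values were seen, moved in opposite directions with the 2 siRNAs in SNB19. It averaged 6.10 with siRNA#1 and 8.08 with siRNA#2, against 7.14 with scramble. Against scramble it was lower by -1.04 ± 0.16 with siRNA#1 (limma adjusted p = 0.0010) and higher by 0.95 ± 0.16 with siRNA#2 (limma adjusted p = 0.0016), and siRNA#2 exceeded siRNA#1 by 1.98 (limma adjusted p = 0.00011). The mean of both siRNAs differed from scramble by -0.05. In SF539 LPL averaged 4.14 with siRNA#1, 4.04 with siRNA#2 and 4.24 with scramble, near the lower quartile of the arrays, and did not pass.

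LRP8, a receptor for apolipoprotein E and reelin, differed from scramble by -0.18 with siRNA#1 and -0.38 with siRNA#2 in SF539, and by -0.001 with siRNA#1 and 0.92 with siRNA#2 in SNB19; both siRNA#2 values passed (limma adjusted p = 0.029 and 7.5e-05). PLIN2 averaged 11.83 with siRNA#1 and 10.70 with siRNA#2 in SF539, against 12.18 with scramble.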
